A study of Mus musculus with 38 samples.

Results

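The 10 genes described here encode the uptake system of the visceral yolk sac and the carrier proteins that tissue handles: Dab2, Lrp2, Cubn and Amn on the uptake side, and Apoe, Apoa1, Trf, Ttr, Afp and Rbp4 on the carrier side. They were chosen by name, as 10 of the 23481 genes listed in the bulk table, and were followed in bulk RNA-seq, SCRB-seq and SMART-seq2 data of retinoic acid (RA) driven differentiation. All samples came from E14, a mouse embryonic stem cell (mESC) line, so that every library shares 1 genetic background. The mESCs were held in 2i/L, that is, with LIF at 1000 U/ml, a MEK inhibitor at 1 µM and a GSK3 inhibitor at 3 µM, and differentiation took place in N2B27 medium with RA at 0.25 µM.

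The 25 bulk libraries fall into 5 kinds. There were 2 mESC libraries, and 9 libraries of unsorted cultures taken after 6 h, 12 h, 24 h, 36 h, 48 h, 60 h, 72 h, 84 h and 96 h of RA. At 48 h, PDGFRA- cells were divided by their CD24 staining into 4 quartiles. At 72 h, PDGFRA- cells were divided by CD24 into 3 terciles and PDGFRA+/CD24- cells were collected beside them. At 96 h, ectoderm-like cells (CD24+/PDGFRA-) and XEN-like cells (PDGFRA+/CD24-) were sorted with 2 libraries each, which the labels give as biological replicates; XEN stands for extraembryonic endoderm. The study's methods call the mESC pair biological replicates too. The last 2 libraries came from sorted cells kept in N2B27 medium with EGF at 20 ng/ml and FGF2 at 10 ng/ml: ectoderm-like cells after 5 passages as attached cells, and XEN-like cells after 3 weeks as floating aggregates that were not dissociated. The cultures thus differ in cell type, time and mode of growth together, and these cannot be told apart. Every condition other than mESCs and the sorted 96 h cells had 1 library, so it has values and counting intervals but no test.

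In the embryo, the visceral endoderm of the yolk sac takes up maternal proteins before the placenta works. LRP2 (megalin) and CUBN (cubilin) are very large receptors on the apical surface, AMN (amnionless) carries cubilin to that surface, and DAB2 is the adaptor that couples the tail of megalin to clathrin. The same tissue makes carrier proteins: AFP, the albumin of the fetus; TTR, which carries thyroid hormone and binds RBP4, the carrier of retinol; TRF (transferrin), which carries iron; and the apolipoproteins APOA1 and APOE. Parietal endoderm, the other branch of extraembryonic endoderm, makes basement membrane, and DAB2 is found in both branches.

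For orientation, the genes lie at these positions of GRCm38, in the GENCODE M21 annotation: Dab2 at chr15:6299788-6440712 (+), Lrp2 at chr2:69424340-69586065 (-), Cubn at chr2:13276338-13491813 (-), Amn at chr12:111271095-111276426 (+), Apoe at chr7:19696109-19699188 (-), Apoa1 at chr9:46228580-46230466 (+), Trf at chr9:103204001-103230444 (-), Ttr at chr18:20665280-20674321 (+), Afp at chr5:90490737-90508907 (+) and Rbp4 at chr19:38116629-38125281 (-). All are annotated as protein coding.

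Bulk values are unique molecular identifier (UMI) counts per gene, given here as CPM, counts scaled to 1000000 UMIs of the library. Library totals lay between 1063830 and 2459483 UMIs. Intervals are exact 95% Poisson intervals, and intervals of a ratio are conditional on the sum of both counts; both cover counting error only. In bulk samples, fewer cells of a type and less RNA per cell cannot be told apart. The gates matched their genes: Pdgfra was at 144 and 143 CPM in sorted XEN-like cells and at 116 CPM in PDGFRA+ cells at 72 h, and Cd24a at 268 and 388 CPM in sorted ectoderm-like cells. The second sorted ectoderm-like library stood apart from the first. It held Pdgfra at 36.8 against 3.33 CPM, and the XEN markers other than Dab2 summed to 1537 against 455 CPM, beside 10787 and 5715 CPM in sorted XEN-like cells. The XEN-like culture went against its gate in Cd24a, at 421 CPM against 9.14 and 14.6 CPM in sorted XEN-like cells, and a gut and stomach epithelium list of 10 genes, which summed to at most 147 CPM in every other bulk library, summed to 125291 CPM there, with 9 of the 10 genes detected and Cdx1 at 0. The ectoderm-like culture also went against its gate in Cd24a, at 18.7 CPM. Results that rest on these libraries are to be read with these values, and their part in those results was not tested.

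Of the 10 genes, 8 had a promoter in the RefSeq table used (GRCm38.p6), all but Trf and Ttr. The 250 bases before the start site of 3 genes are shown because these genes stand for the patterns described below: Dab2 and Cubn, which were high in the same samples, and Afp, which stayed at a few UMIs until the XEN-like culture. Capitals mark matches on either strand to a GATA word, which is AGATAA with its variant TGATAA that starts on T, or AGATAG with its variant TGATAG, or to GTTAAT, the core letters of the HNF1 motif.
Dab2, first start site, chr15:6299539-6299788 (+): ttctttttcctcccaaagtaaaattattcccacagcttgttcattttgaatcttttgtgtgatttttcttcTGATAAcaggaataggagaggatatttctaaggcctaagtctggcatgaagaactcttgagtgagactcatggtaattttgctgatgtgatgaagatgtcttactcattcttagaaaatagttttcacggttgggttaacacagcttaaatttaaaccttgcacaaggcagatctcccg
Cubn, chr2:13491877-13492126 (-): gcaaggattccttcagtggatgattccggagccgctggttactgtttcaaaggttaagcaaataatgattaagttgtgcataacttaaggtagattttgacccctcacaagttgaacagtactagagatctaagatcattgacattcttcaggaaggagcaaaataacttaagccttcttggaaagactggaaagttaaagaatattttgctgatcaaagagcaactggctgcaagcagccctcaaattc
Afp, chr5:90490464-90490713 (+): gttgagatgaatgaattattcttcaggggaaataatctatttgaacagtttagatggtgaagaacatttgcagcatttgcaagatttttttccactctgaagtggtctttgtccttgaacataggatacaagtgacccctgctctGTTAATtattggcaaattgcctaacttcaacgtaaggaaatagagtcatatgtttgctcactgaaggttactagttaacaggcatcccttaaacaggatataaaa
The Dab2 sequence held TGATAA 179 to 174 bases before the start, the Afp sequence held GTTAAT 105 to 100 bases before the start, and the Cubn sequence held neither. The second Dab2 start site, at chr15:6386498-6386747, held GTTAAT. Apoa1 held AGATAG on the reverse strand, 1 of 3 Apoe start sites held both words, and Lrp2, Amn and Rbp4 held none. Among all 32851 promoters of this length, 26.5% held a GATA word and 6.43% the HNF1 core. A match describes letters in this window and shows no binding.

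The time course asks in which order the genes come on. At 96 h of RA, 7 of the 9 genes with at least 10 UMIs between the samples compared were at least 2-fold above mESCs (Dab2, Lrp2, Cubn, Ttr, Rbp4, Apoa1 and Afp), against 27.2% of all genes with that many UMIs, and 2 were at least 2-fold lower (Apoe and Trf), against 11.4%. Taken by the first time from which a gene's interval stayed above those of both mESC libraries, Lrp2 came first at 24 h, Dab2 followed at 48 h, Cubn and Ttr at 60 h, Rbp4 at 72 h and Apoa1 at 96 h. Amn, Trf and Afp never met this criterion, which genes with few UMIs meet later: at 48 h Cubn was already at 8.39 times (1.74 to 79.8, on 9 UMIs) and Rbp4 at 7.45 times (1.49 to 72.1, on 8 UMIs) the pooled mESC level, and Ttr at 2.33 times (0.501 to 11.7), so that the order among these genes is not settled.

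Lrp2, the megalin receptor, stood at 1.31 and 0.435 CPM in mESCs and at 1.96 and 1.76 CPM at 6 h and 12 h. It then reached 10.5 CPM at 24 h, stayed between 10.2 and 11.8 CPM from 36 h to 60 h, and went to 24.0, 35.8 and 54.3 CPM at 72 h, 84 h and 96 h. Lrp2 therefore had a plateau between 24 h and 60 h that neither Dab2 nor Cubn shared. Its 96 h level was 62.2-fold that of mESCs (23.6 to 233), 125-fold without the first mESC library and 41.4-fold without the second.

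Dab2, the endocytic adaptor, was at 3.06 and 1.31 CPM in mESCs and between 1.96 and 6.05 CPM up to 36 h. From 48 h to 96 h, in steps of 12 h, it stood at 36.6, 149, 293, 449 and 908 CPM, higher at each time than at the one before. The level at 96 h was 416-fold that of mESCs (226 to 869), or 695-fold without the first mESC library, and 3.10-fold that at 72 h (2.81 to 3.42). Relative to Actb in place of library totals the ratio to mESCs was 245, and those of the other members were lower by the same factor, with Ttr at 149, Rbp4 at 65.1 and Apoe at 0.0689.

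Cubn, the cubilin receptor, followed a similar course at lower counts: 0.437 and 0.435 CPM in mESCs, 1.21 CPM at most up to 36 h, then 3.66, 13.8, 37.6, 45.6 and 95.3 CPM from 48 h to 96 h in steps of 12 h. Its 96 h level was 218-fold that of mESCs (59.6 to 1817, from 186 against 2 UMIs). Its partner Amn, without which cubilin does not reach the surface, had few UMIs throughout. Amn had at most 7 UMIs in any bulk library, at 96 h, and 0 UMIs in 10 of the 25 libraries, among them those at 60 h and 72 h, where Cubn was already above mESCs. The 7 UMIs at 96 h against 1 in the mESC libraries together gave a ratio of 16.4 with an interval from 2.11 to 741.

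Among the carriers, Ttr moved most. It was at 0.875 and 0.871 CPM in mESCs, between 0.996 and 2.93 CPM up to 48 h, and then at 8.41, 33.2, 75.7 and 221 CPM at 60 h, 72 h, 84 h and 96 h. The step from 72 h to 96 h was 6.65-fold (5.07 to 8.84) for Ttr and 4.42-fold (2.71 to 7.56) for Rbp4, and 2.27- to 3.10-fold for the uptake genes Lrp2, Cubn and Dab2. The SCRB-seq cells did not show this step for Ttr: they held 0.359 UMIs per 10000 at 72 h (47 UMIs) and 0.110 at 96 h (8 UMIs). Rbp4 was at 0.437 and 0.435 CPM in mESCs and reached 10.9, 19.7 and 48.2 CPM at 72 h, 84 h and 96 h. At least 2-fold higher at 96 h than at 72 h were 6 of 8 members, with 8.05% of all genes, and 0 were at least 2-fold lower, with 5.07%.

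Apoe went the other way. It was at 86.6 and 457 CPM in the mESC libraries, which differed 5.27-fold (4.52 to 6.17), at 102 CPM at 6 h and 63.4 CPM at 12 h, and between 19.2 and 42.4 CPM from 24 h to 96 h. From 12 h on, its interval lay below both mESC intervals. Its level at 96 h was 0.117 times that of the pooled mESCs (0.0890 to 0.151), 0.0696 times without the first mESC library and 0.367 times without the second. Trf had between 1 and 18 UMIs in these libraries, with the highest count at 6 h and 1 UMI at 96 h, and its mESC libraries held 10 and 3 UMIs. Afp had at most 9 UMIs and Apoa1 at most 11 UMIs in any time course library, both at 96 h, so that their ratios to mESCs, 5.29 (1.48 to 23.5) and 25.8 (3.76 to 1112), rest on few molecules; without the second mESC library they were 3.51 and 12.9, and without the first that of Afp was 10.6 and Apoa1 had 0 UMIs in mESCs.

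**Figure D1:**
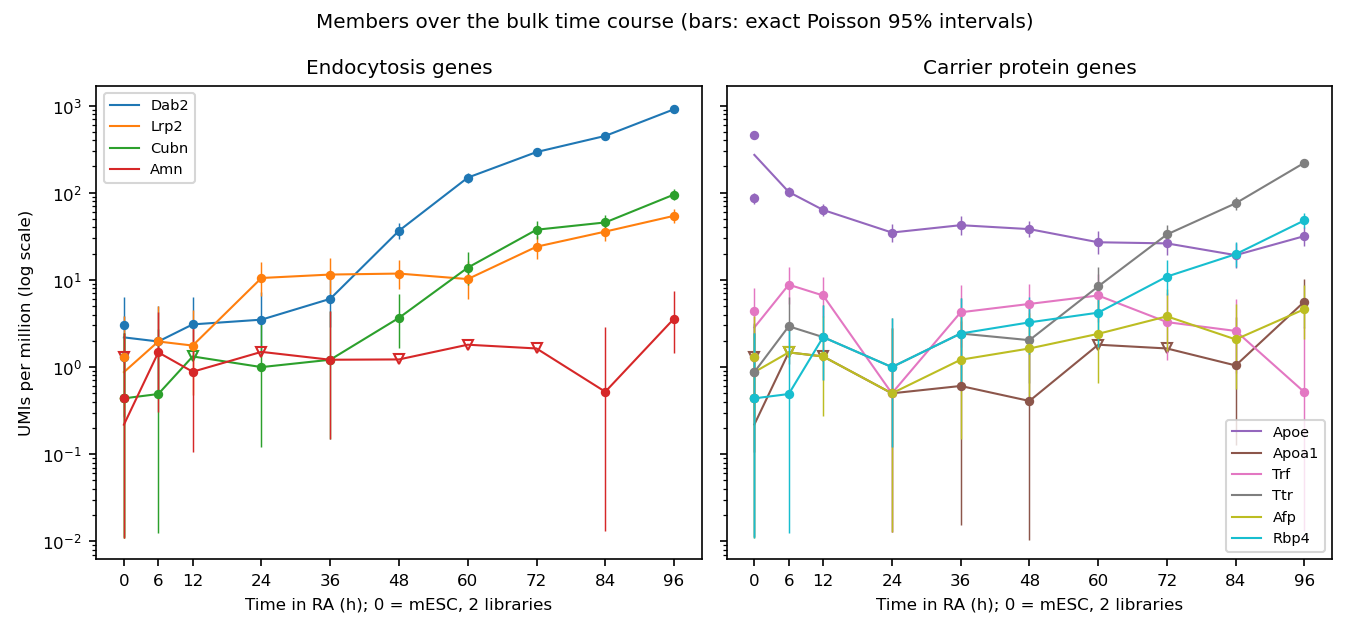
Bulk level of each gene in CPM (log axis) against hours of RA. Points are single libraries with exact 95% Poisson intervals, the line runs through the mean of the 2 mESC libraries at 0 h, and open triangles mark the limit that a count of 0 allows; Lrp2 leaves its mESC level at 24 h, Dab2 at 48 h, Cubn and Ttr at 60 h, while Apoe is lower from 12 h on and Amn, Trf and Afp do not leave theirs, with at most 7, 18 and 9 UMIs.

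The gates ask which of these genes belong to the PDGFRA+ cells. At 48 h, where only PDGFRA- cells were collected, CD24 separated the quartiles by Cd24a (19.4 to 127 CPM) but the members little. Dab2 was at 25.4, 20.0, 11.3 and 14.5 CPM from quartile 1 to 4, 0.571-fold in quartile 4 against quartile 1 (0.325 to 0.984). Lrp2 was between 8.03 and 12.2 CPM and Apoe between 29.4 and 44.3 CPM, with no order along the quartiles. At least 2-fold higher in quartile 4 were 2 of 5 members, Trf and Ttr, with 9.31% of all genes, and 0 lower, with 6.21%, on 8 against 3 and 9 against 3 UMIs.

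At 72 h Dab2, Cubn and Lrp2 were highest in PDGFRA+ cells. Dab2 stood at 138, 55.6 and 35.3 CPM in PDGFRA- terciles 1 to 3 and at 1014 CPM in PDGFRA+ cells, 13.2-fold above the pooled terciles (11.6 to 15.0). Cubn was at 15.5, 3.53 and 2.30 CPM in the terciles and at 129 CPM in PDGFRA+ cells, 17.8-fold higher (11.9 to 27.8). Both genes were lower the higher the CD24 tercile, and so was Pdgfra itself, at 15.5, 6.18 and 2.30 CPM. Lrp2 was at 10.9, 6.18 and 10.7 CPM in the terciles, without such an order, and at 38.2 CPM in PDGFRA+ cells, 4.07-fold higher (2.60 to 6.43). Amn had 3 UMIs in PDGFRA+ cells and 1 UMI in the terciles together.

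Of the carriers, Ttr and Apoe were lower in PDGFRA+ cells, and the intervals of Rbp4 and Afp included 1. Ttr was at 30.3, 58.2 and 48.4 CPM in the terciles and at 16.9 CPM in PDGFRA+ cells, 0.375-fold (0.231 to 0.581), the lowest of the 4 gates. Apoe was at 47.4, 39.7 and 13.8 CPM in the terciles and at 7.35 CPM in PDGFRA+ cells, 0.221-fold (0.103 to 0.420). Rbp4 was at 0.777, 12.4 and 0.768 CPM in the terciles, so that 1 tercile held nearly all of it, and at 9.55 CPM in PDGFRA+ cells, with a ratio of 2.22 whose interval includes 1 (0.984 to 4.93). Trf had 0 UMIs in PDGFRA+ cells and 15 in the terciles, and Afp had 3 and 18 UMIs, a ratio of 0.456 (0.0861 to 1.56). Of 8 members with 10 UMIs, 4 were thus at least 2-fold higher in PDGFRA+ cells (Dab2, Lrp2, Cubn, Rbp4), with 9.27% of all genes, and 4 at least 2-fold lower (Apoe, Trf, Ttr, Afp), with 23.9%; with TMM-scaled library sizes Afp was at 0.516 and no longer among them.

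From PDGFRA+ cells at 72 h to sorted XEN-like cells at 96 h, pooled over the 2 libraries, the adaptor changed little and other members more: the ratio was 1.13 for Dab2 (1.07 to 1.21), 1.37 for Cubn (1.16 to 1.64), 1.96 for Lrp2 (1.45 to 2.71), 2.22 for Rbp4 (1.21 to 4.39), 2.26 for Apoe (1.14 to 5.00) and 2.89 for Ttr (1.86 to 4.71). At least 2-fold higher were 3 of 7 members, with 11.6% of all genes, and 0 were at least 2-fold lower, with 1.51%. The sorted XEN-like libraries differed from each other by 3.48-fold for Ttr, 0.318-fold for Cubn, 0.401-fold for Lrp2 and 0.239-fold for Apoe (second over first), which is more than the change in time for each of these 4 genes. The second library alone lay below PDGFRA+ cells for Dab2 (950 against 1014 CPM), Cubn (74.7 against 129 CPM) and Apoe (5.47 against 7.35 CPM). Lrp2 was level there (38.3 against 38.2 CPM), and Ttr (90.2 against 16.9 CPM) and Rbp4 (19.1 against 9.55 CPM) were higher.

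**Figure D2:**
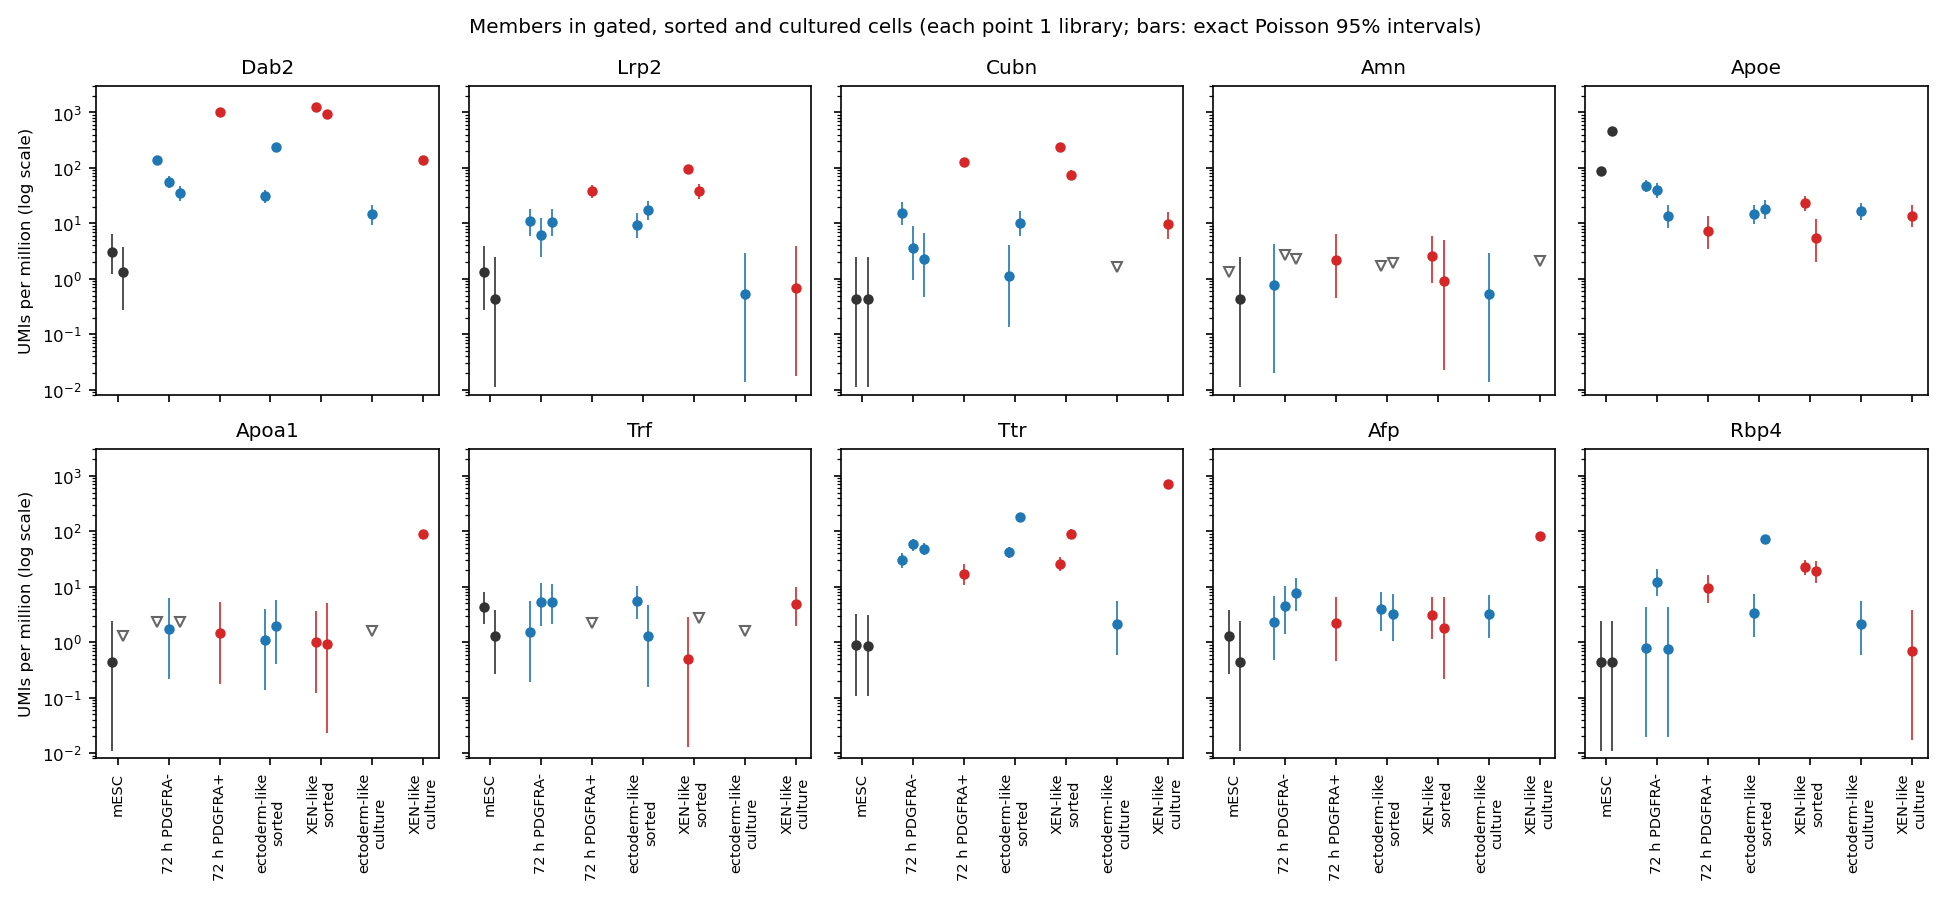
Bulk level of each gene in CPM (log axis) in mESCs, the gates at 72 h, sorted 96 h cells and cultures, 1 point per library with its exact 95% Poisson interval. Red marks PDGFRA+ and XEN-like libraries, blue PDGFRA- and ectoderm-like libraries, black mESCs, and open triangles the limit that a count of 0 allows; Dab2 and Cubn are highest in the red sorted libraries, whereas Ttr, Afp and Apoa1 are highest in the XEN-like culture.

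The pairs of libraries of mESCs and of both sorted populations allow a test, for which edgeR's quasi-likelihood fit of 8947 genes with Benjamini-Hochberg adjustment was used. Of the 10 members, 6 passed the filter on low counts; Amn, Apoa1, Trf and Afp did not and are given as UMIs. Against mESCs, 5 members were higher in XEN-like cells (Dab2, Lrp2, Cubn, Ttr, Rbp4), with 12.3% of all genes, and Apoe was lower, with 10.5%. Against ectoderm-like cells, 3 were higher (Dab2, Lrp2, Cubn), with 6.99%, and 0 lower, with 5.74%; at an unadjusted p under 0.05 the member counts were again those 3 and 0. In ectoderm-like cells against mESCs, 4 were higher (Dab2, Lrp2, Ttr, Rbp4), with 9.85%, and Apoe lower, with 9.28%; without the second ectoderm-like library, the one that held more XEN markers, 2 were higher (Dab2, Ttr), since Lrp2 (2.98, edgeR adjusted p = 0.0595) and Rbp4 lost their calls.

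Dab2 was at 1263 and 950 CPM in sorted XEN-like cells, at 30.6 and 242 CPM in ectoderm-like cells and at 3.06 and 1.31 CPM in mESCs. The 3 groups did not overlap. Its log2 fold change was 8.74 ± 0.97 (SE) against mESCs (edgeR adjusted p = 0.000143) and 3.09 ± 0.68 against ectoderm-like cells (adjusted p = 0.0126), and DESeq2 gave 3.10 for the latter with an adjusted p of 0.0901. The ectoderm-like libraries differed 7.90-fold, with the higher value in the library that also held more Pdgfra, and within replicate numbers XEN-like cells were 41.3-fold and 3.93-fold above ectoderm-like cells.

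Cubn was at 235 and 74.7 CPM in XEN-like cells, at 1.11 and 10.3 CPM in ectoderm-like cells and at 0.437 and 0.435 CPM in mESCs, again without overlap. Its log2 fold change was 8.05 ± 0.94 against mESCs (edgeR adjusted p = 0.000178) and 4.86 ± 0.70 against ectoderm-like cells (adjusted p = 0.00192). Lrp2 was at 95.5 and 38.3 CPM in XEN-like cells, at 9.45 and 17.4 CPM in ectoderm-like cells and at 1.31 and 0.435 CPM in mESCs. Its log2 fold change was 5.95 ± 0.65 against mESCs (edgeR adjusted p = 0.000134) and 2.41 ± 0.47 against ectoderm-like cells (adjusted p = 0.00721), and the latter lost its call when the first ectoderm-like library was left out (2.01, adjusted p = 0.106) and without the first XEN-like library (1.75, adjusted p = 0.0782). In ectoderm-like cells Lrp2 was above mESCs too, by 3.54 ± 0.73 (adjusted p = 0.0055). Cubn had 3.19 ± 1.26 there, with an adjusted p of 0.102. Amn had 5 and 1 UMIs in XEN-like cells and 0 in both ectoderm-like libraries.

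The retinol and thyroid hormone carriers rose in both sorted populations and were not separated between them in the main fit. Ttr was at 25.9 and 90.2 CPM in XEN-like cells and at 42.2 and 183 CPM in ectoderm-like cells, ranges that overlap. Against mESCs its log2 fold change was 5.77 ± 1.05 in XEN-like cells (edgeR adjusted p = 0.0023) and 6.63 ± 1.03 in ectoderm-like cells (adjusted p = 0.0011), and between them it was -0.86 ± 0.67 (adjusted p = 0.457). Within replicate numbers Ttr was lower in XEN-like cells in both, 0.613-fold (0.421 to 0.886) and 0.494-fold (0.389 to 0.623). With a replicate block in the fit, Ttr was called lower in XEN-like cells. Its direction turned without the second ectoderm-like library, the one that held more XEN markers.

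Rbp4 was at 22.3 and 19.1 CPM in XEN-like cells and at 3.33 and 72.4 CPM in ectoderm-like cells, so that the ectoderm-like libraries lay on either side. They differed 21.7-fold (9.66 to 60.4), more than any other member in this pair. The log2 fold change between XEN-like and ectoderm-like cells was -0.78 ± 0.85 (edgeR adjusted p = 0.618); it became 2.83 (adjusted p = 0.033) without the second ectoderm-like library and -1.72 (adjusted p = 0.0447) without the first. Rbp4 thus gives no direction between these populations. Against mESCs it was higher in both, by 5.18 ± 1.44 in XEN-like cells (adjusted p = 0.0232) and 5.96 ± 1.37 in ectoderm-like cells (adjusted p = 0.0102); the first lost its call without either mESC library or the first XEN-like library (adjusted p between 0.0549 and 0.0585), and the second without the second ectoderm-like library (2.41, adjusted p = 0.148).

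Apoe was at 22.9 and 5.47 CPM in XEN-like cells, at 15.0 and 18.1 CPM in ectoderm-like cells and at 86.6 and 457 CPM in mESCs. It was lower than in mESCs in both, with a log2 fold change of -4.42 ± 0.74 (edgeR adjusted p = 0.00146) and -4.37 ± 0.74 (adjusted p = 0.00182), and the sorted populations overlapped (-0.05 ± 0.78, adjusted p = 0.98). Afp had 6 and 2 UMIs in XEN-like and 7 and 5 in ectoderm-like cells, Apoa1 had 2 and 1 against 2 and 3, and Trf had 1 and 0 against 10 and 2. A higher level in XEN-like cells was not detectable for these 3 carriers at this depth.

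**Figure D3:**
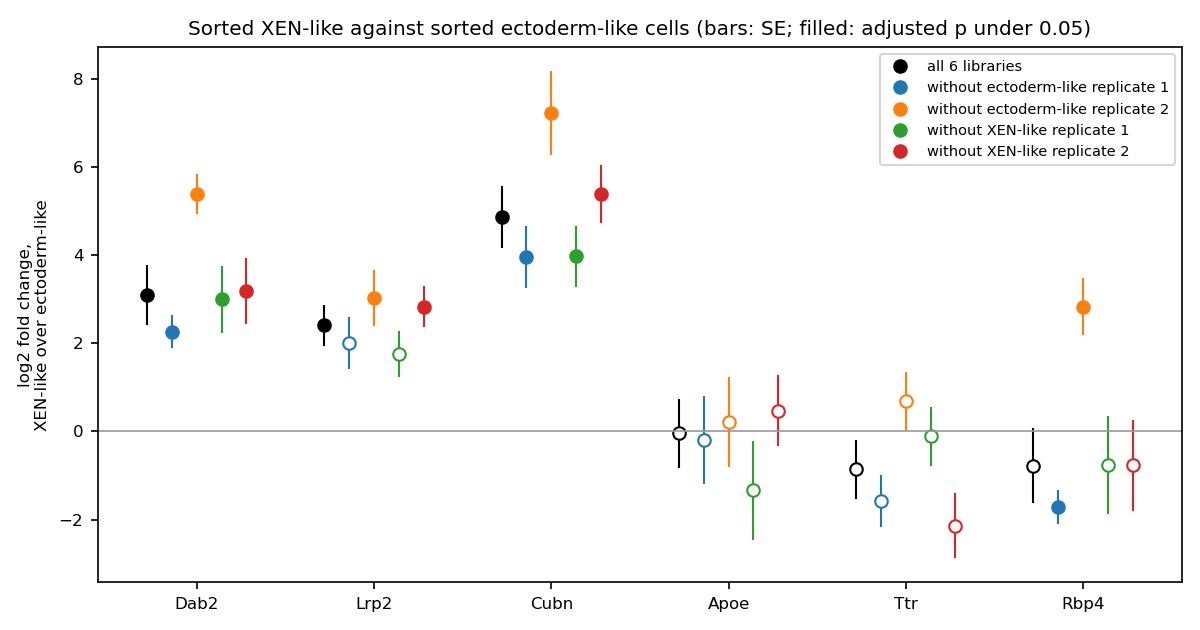
Log2 fold changes of the 6 tested members from edgeR with their SE, for XEN-like against ectoderm-like cells. Each member is drawn for the fit with all 6 libraries and for the fits with each sorted library left out in turn. Filled points mark an adjusted p under 0.05. With all 6 libraries, Dab2, Lrp2 and Cubn lie above 0. Apoe (-0.05), Ttr (-0.86) and Rbp4 (-0.78) have SEs of 0.67 to 0.85 in that fit and did not pass the test.

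The order of levels repeats this split. Dab2 was highest in the first XEN-like library, followed by PDGFRA+ cells at 72 h, the second XEN-like library and unsorted cells at 96 h, which are neighbours whose intervals overlap. Cubn was highest in the first XEN-like library, then in PDGFRA+ cells, then in unsorted cells at 96 h and the second XEN-like library, which overlap. Rbp4 was highest in the second ectoderm-like library, and Apoe in the second mESC library. Ttr, Afp and Apoa1 were highest in the XEN-like culture, and for Ttr unsorted cells at 96 h and the second ectoderm-like library came next and overlapped.

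The cultures are described as labelled, as sorted cells that were grown on. The gut genes and Cd24a in the XEN-like culture, given above, put the identity of that library in doubt, and whether its cells descend from the sorted XEN-like cells was not tested. In the XEN-like culture Dab2, Lrp2 and Cubn were lower and 3 carriers higher than in sorted XEN-like cells. Of 8 members with 10 UMIs, 3 were at least 2-fold higher (Apoa1, Ttr, Afp), with 26.5% of all genes, and 4 at least 2-fold lower (Dab2, Lrp2, Cubn, Rbp4), with 18%. Against the first sorted library alone these were the same 3 and 4 members (with 25.2% and 18.9% of genes), and against the second Apoe was a further member called higher (with 32.9% and 14.4%).

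Ttr had 1037 UMIs in the XEN-like culture, 715 CPM, against 25.9 and 90.2 CPM in sorted XEN-like cells, a ratio of 14.6 (12.3 to 17.5) over the pooled libraries, 27.6 against the first alone and 7.93 against the second. Afp had 118 UMIs, 81.4 CPM, against 3.05 and 1.82 CPM, a ratio of 31.2 (15.3 to 73.9). Apoa1 had 130 UMIs, 89.7 CPM, against 1.02 and 0.911 CPM, a ratio of 91.7 (30.7 to 450). No other bulk library held more than 11 UMIs of either Afp or Apoa1. Trf had 7 UMIs there against 1 in the sorted cells together, and Amn had 0.

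Dab2 was at 140 CPM in the XEN-like culture, against 1263 and 950 CPM in sorted cells, 0.122-fold (0.105 to 0.140). Cubn was at 9.66 CPM, 0.0543-fold (0.0295 to 0.0920), and 0.129-fold against the second sorted library alone. Lrp2 was at 1 UMI, 0.690 CPM, 0.00920-fold (0.000232 to 0.0517) and 0.0180-fold against the second alone, and Rbp4 at 1 UMI, 0.0325-fold (0.000811 to 0.188). Lrp2 and Rbp4 were thus back near their mESC levels, and Dab2 was not. Apoe was at 13.8 CPM, within the 5.47 to 22.9 CPM of the sorted libraries, 0.604-fold the first and 2.52-fold the second.

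The gut and stomach list and Cd24a moved with these changes, as given above. Other secreted carriers summed to 4906 CPM in the XEN-like culture and to at most 478 CPM elsewhere, but did not all move the same way. Of the 10 with at least 10 UMIs, 5 were at least 2-fold higher and 3 lower than in sorted XEN-like cells. The shares of all genes were 26.5% and 18%. The XEN markers other than Dab2 summed to 9957 CPM in this culture, between the values of the sorted libraries. Pdgfra was at 34.5 CPM. Whether the same cells held the XEN markers, the gut genes and the carriers was not tested, since the library is a bulk of 1 culture. To mark this culture, 16 genes were picked with at least 1000 UMIs there and a CPM over 100-fold that of every library except the cultures. Those libraries held a median of 0.0738% of its UMIs of these genes. At that rate Ttr would leave 0.766 UMIs and Afp 0.0871 UMIs in another library. Genes with a higher share elsewhere were left out by the rule, so the rate cannot show how many UMIs passed between libraries.

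In the ectoderm-like culture, 6 of 8 members were at least 2-fold lower than in sorted ectoderm-like cells (Dab2, Lrp2, Cubn, Trf, Ttr, Rbp4), with 17.1% of all genes, and 0 higher, with 19.2%. Against the first sorted library alone 4 of 7 were lower (Dab2, Lrp2, Trf, Ttr; 17.6% of genes) and 0 higher (20.1%), and against the second, which held more XEN markers, 5 of 7 were lower (Dab2, Lrp2, Cubn, Ttr, Rbp4; 13% of genes) and 0 higher (21.9%). Dab2 was at 14.5 CPM, 0.113-fold (0.0735 to 0.166), with 0.473-fold against the first library and 0.0598-fold against the second. Ttr was at 2.14 CPM, 0.0200-fold (0.00541 to 0.0516), with 0.0507-fold and 0.0117-fold in the same order. Rbp4 was at 2.14 CPM too, 0.642-fold the first library (0.133 to 2.71) and 0.0296-fold the second. Cubn had 0 UMIs, with 18 in the sorted libraries together. Apoe was at 16.6 CPM, a ratio of 1.01 (0.628 to 1.60), while genes of mesenchyme and glia, cells that also make Apoe, summed to 3253 CPM in this culture and to at most 64 CPM in the sorted libraries. Between the cultures, 5 of 6 members were at least 2-fold higher in the XEN-like one (Dab2, Cubn, Apoa1, Ttr, Afp), with 22.4% of all genes, and 0 lower, with 24.2%. Ttr differed 334-fold (130 to 1228) and Dab2 9.69-fold (6.46 to 15.1).

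**Figure D4:**
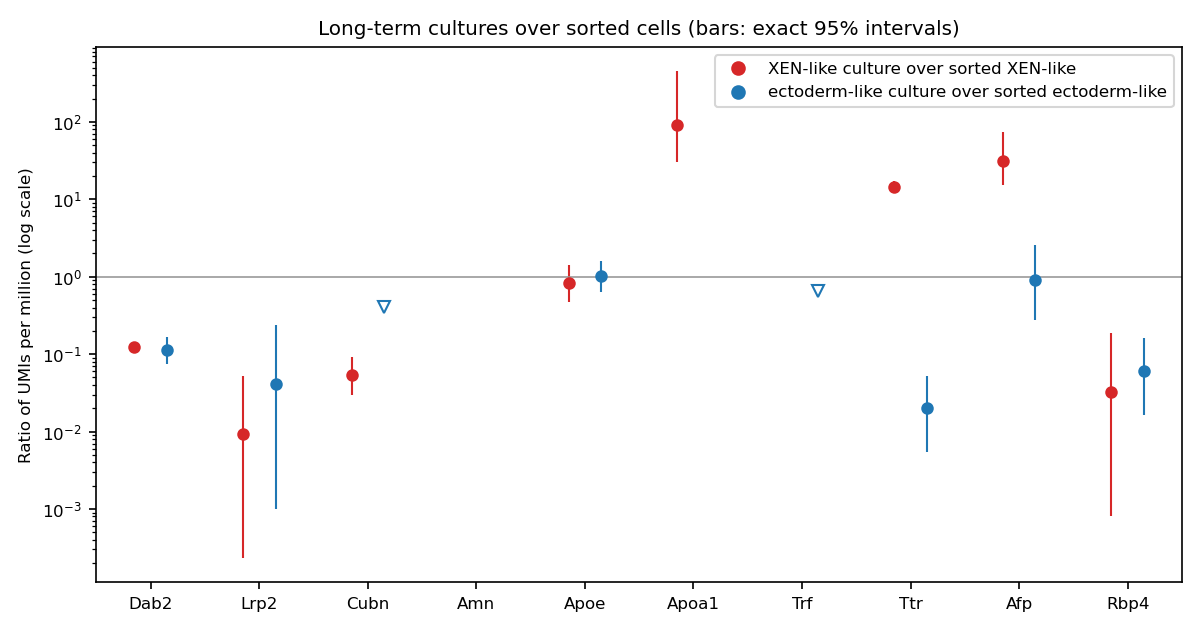
Ratio of each culture to the sorted cells of the same label (log axis), with exact 95% intervals; members with under 10 UMIs over both sides are not drawn, and open triangles are upper bounds where the culture had 0 UMIs. Ttr, Afp and Apoa1 lie above 1 and Dab2, Lrp2, Cubn and Rbp4 below 1 in the XEN-like culture, whereas in the ectoderm-like culture no member lies at 2 or above.

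Single-cell data show how many cells carry each gene. In SCRB-seq, 3456 wells from 9 time points were sequenced and the 2448 wells with more than 2000 UMIs were kept, 282 cells at 0 h (median 3938 UMIs) and 137 cells at 96 h (median 4028 UMIs). The same 384 well names occur on each of the 9 plates, so cells are identified within their plate. To make shares comparable, each cell was thinned to 2000 UMIs. Each time point is 1 culture, so no test was run.

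The share of cells with a Dab2 UMI was 0% at 0 h, where the gene should be absent, 3.25% at 48 h, 13.2% at 60 h, 11.5% at 72 h and 43.1% (34.6 to 51.8, exact binomial) at 96 h. Without thinning it was 59.9% at 96 h and 0.709% at 0 h. Lrp2 was found in 0% of cells at 0 h, 1.49% at 6 h, 2.11% at 12 h, 7.24% at 24 h and 15.2% at 48 h. It was in 10.6% at 60 h and at 72 h, and in 28.5% (21.1 to 36.8) at 96 h. Cubn was found in 0% of cells at 0 h, 2.89% at 48 h, 5.49% at 60 h, 13.2% at 72 h and 18.2% (12.2 to 25.7) at 96 h. Lrp2 therefore came on before Dab2 and Cubn in single cells as in bulk: it was in more cells than either from 6 h to 48 h, and at 96 h Dab2 was in more cells than Lrp2.

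A UMI of Apoe was detected, at this thinned depth, in 57.1% of cells at 0 h, 23.9% at 6 h, 16.1% at 12 h, 11.9% at 48 h and 2.92% (0.801 to 7.31) at 96 h. Rbp4 was in 4.38% (1.62 to 9.29) and Ttr in 2.92% (0.801 to 7.31) of cells at 96 h. At 72 h, the 47 UMIs of Ttr came from 17 cells, 1 of which held 15; these cells were deep, with a median of 10216 against 3706 UMIs over all cells, and doublets were not called. Amn had 2 UMIs at 96 h, both in 1 cell, and its highest count was 14 UMIs in 14 cells at 6 h, in 1.19% of cells after thinning. Afp, Apoa1 and Trf had 0 of 726759 UMIs at 96 h, which allows up to 0.0413 UMIs per 10000, beside 4.14 for Dab2.

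**Figure D5:**
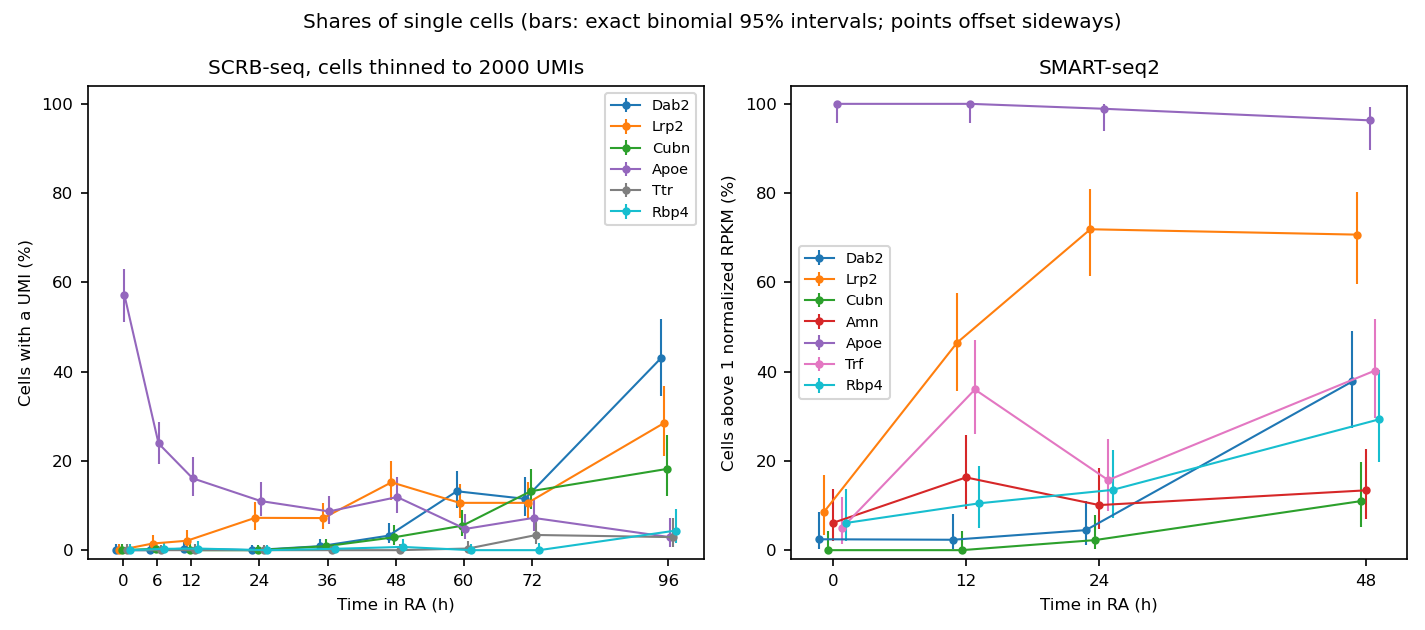
Left, share of SCRB-seq cells (percent) with at least 1 UMI of Dab2, Lrp2, Cubn, Apoe, Ttr or Rbp4 after thinning to 2000 UMIs, against hours of RA. Right, share of SMART-seq2 cells above 1 RPKM of Dab2, Lrp2, Cubn, Amn, Apoe, Trf or Rbp4. Each time point is 1 culture, with exact 95% binomial intervals over cells. In SCRB-seq, Lrp2 is at 1.49% at 6 h, 15.2% at 48 h, 10.6% at 60 h and 72 h and 28.5% at 96 h. Dab2 and Cubn are at 43.1% and 18.2% at 96 h there. Apoe is at 57.1% at 0 h and 2.92% at 96 h, and Rbp4 and Ttr reach 4.38% and 3.40% at most.

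Cells at 96 h were divided by their summed UMIs of 6 basement membrane genes of the XEN list, at the median of 114 UMIs per 10000, which gave 68 and 69 cells with 10 cells within 10% of the division and median depths of 4446 and 3669 UMIs. This is a range of 1 culture and not a cell type. The level of Dab2 was 5.93 UMIs per 10000 in the upper range and 1.60 in the lower, a ratio of 3.71 (2.72 to 5.17). Lrp2 stood at 3.40 and 1.30, a ratio of 2.62 (1.83 to 3.83), and Cubn at 2.58 and 0.699, a ratio of 3.69 (2.30 to 6.20). With the cells divided at 140 UMIs per 10000, into 46 and 91 cells, these ratios were 2.20, 1.81 and 1.94. All these intervals take UMIs as independent and cover counting error only. For comparison, Gata6 had a ratio of 5.35 and the ectoderm genes Cd24a and Prtg 0.459 and 0.436. After thinning, Dab2 was in 58.8% of the upper and 27.5% of the lower cells, and Cubn in 25% and 11.6%.

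The same division was made at earlier times, where it did not set apart cells low in ectoderm genes: the upper cells did not hold less Cd24a (ratios of 1.25, 1.33 and 1.32 at 48 h, 60 h and 72 h) or Prtg (1.15, 1.08 and 1.11). At 48 h the ratio was 7.34 (2.28 to 37.6, 30 against 3 UMIs) for Dab2, 6.60 (1.58 to 58.7, 18 against 2 UMIs) for Cubn and 1.09 (0.783 to 1.54) for Lrp2. With the cells divided at a higher level, Dab2 was at 1.46 (0.684 to 3.07) and Cubn at 4.08 (1.47 to 13). With Sparc left out of the sum, Dab2 was at 2.91 (1.18 to 8.63) and Cubn at 3.67 (1.06 to 19.5). Both values at 48 h thus depend on how the cells were divided. At 60 h the ratio was 6.63 (4.24 to 10.9) for Dab2, 8.36 for Cubn and 1.61 for Lrp2, and at 72 h 3.19, 5.21 and 2.31. After thinning, Dab2 was in 19.9% of the upper and 6.57% of the lower cells at 60 h and in 19.7% and 3.39% at 72 h, and Cubn in 9.56% and 1.46% and in 17.9% and 8.47%. A few cells weigh heavily in the ratios, since 9 of 235 cells at 72 h held 6 or more Cubn UMIs. Ttr had a ratio of 1.05 (0.565 to 1.99) at 72 h, in the time point with most of its UMIs. Divided at a higher level, the cells gave 1.58 (0.854 to 2.95). The upper and lower cells held 8 and 0 Ttr UMIs at 60 h, and 7 and 1 at 96 h. Rbp4 at 96 h had 18 UMIs in the upper and 3 in the lower cells, a ratio of 4.23 (1.23 to 22.4), which depended on where the cells were divided.

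Cubn and Dab2 shared cells at 96 h. Of 55 cells with a Cubn UMI at 96 h, 46 had a Dab2 UMI (83.6%), against 59.9% of all cells; the Cubn cells were also deeper, with a median of 5898 against 4028 UMIs, and in thinned cells 15 of 25 had a Dab2 UMI, against 59 of 137 cells in all (43.1%). Thinned, 2 of 8 Cubn cells had a Dab2 UMI at 48 h, 5 of 15 at 60 h and 5 of 31 at 72 h, where 3.25%, 13.2% and 11.5% of all cells did. All 13 cells with an Rbp4 UMI at 96 h had a Dab2 UMI, and their median depth was 3842 UMIs.

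SMART-seq2, which reads whole transcripts, covered 0 h to 48 h in 339 cells, as RPKM brought to a common total, that of the median mESC; at 48 h it found Lrp2, Dab2 and Cubn in more cells than SCRB-seq did. The share of cells above 1 RPKM was 8.54% for Lrp2 in mESCs, and 46.5%, 71.9% and 70.7% after 12 h, 24 h and 48 h of RA. For Dab2 it was 2.44%, 2.33%, 4.49% and 37.8%, and for Cubn 0%, 0%, 2.25% and 11%. Lrp2 was thus ahead of Dab2 and Cubn in these cells as well. Apoe was above 1 RPKM in 100% of cells at 0 h and in 96.3% at 48 h, while its mean went from 1002 to 296 RPKM. Its share lies near the ceiling at this threshold and could show little of such a change.

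This assay also saw carriers that bulk counts barely did. Trf was above 1 RPKM in 4.88%, 36.0%, 15.7% and 40.2% of cells over the 4 times, and Rbp4 in 6.10%, 10.5%, 13.5% and 29.3%. Amn was above 1 RPKM in 6.10%, 16.3%, 10.1% and 13.4%, with no steady course. Afp, Ttr and Apoa1 stayed in at most 3.66% of cells at any time. On this scale, per length of transcript, the means at 48 h were 26.4 RPKM for Lrp2, 20.9 for Trf, 19.4 for Dab2, 11.5 for Rbp4 and 3.99 for Cubn, below 296 for Apoe.

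Among the 82 cells at 48 h, the 10 with the highest Pdgfra (11.1 RPKM and above) were set beside the other 72. Of the XEN markers read for comparison, Sox17 had 55.5 against 9.80 RPKM, in 7 of 10 against 16 of 72 cells. Gata6 had 6.53 against 5.78 RPKM, in 1 of 10 against 13 of 72 cells. The ectoderm gene Cd24a had 75.9 against 106 RPKM, in 8 of 10 against 55 of 72 cells. Dab2 had a mean of 77.1 RPKM against 11.3 and was above 1 RPKM in 7 of 10 against 24 of 72 cells. Cubn had 15.1 against 2.45 RPKM, in 4 of 10 against 5 of 72 cells. Lrp2 had 28.8 against 26 RPKM and thus hardly differed, as in the SCRB-seq cells of that time. Trf had 13.2 against 21.9 RPKM and was above 1 RPKM in 1 of 10 against 32 of 72 cells, and Rbp4 had 4.87 against 12.4 RPKM in 2 of 10 against 22 of 72. Apoe, which was lower in PDGFRA+ cells than in the terciles at 72 h in bulk, was here higher in the cells with Pdgfra, at a mean of 506 against 267 RPKM, above 1 RPKM in 10 of 10 and 69 of 72 cells. Amn had 9.14 against 3.22 RPKM, in 3 of 10 against 8 of 72 cells. Afp, Ttr and Apoa1 were at 0 in the 10 cells and above 1 RPKM in 3, 1 and 1 of the 72. These are cells of 1 culture, and no test was run.

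The rest of the pathway was read from lists of genes around the members. Of 22 genes of the endocytosis machinery, 21 were tested; 8 were higher and 0 lower in XEN-like than in ectoderm-like cells (median log2 fold change 0.803, against -0.0630 over all genes, of which 6.99% were higher and 5.74% lower). Lrpap1, the chaperone of megalin, rose by 3.61 ± 0.47 (edgeR adjusted p = 0.0012). Against mESCs 9 of the 21 were higher and 2 lower in XEN-like cells, beside 12.3% and 10.5% of all genes, and 2 were higher and 2 lower in ectoderm-like cells, near the 9.85% and 9.28% of all genes. In PDGFRA+ cells at 72 h, 8 of 22 were at least 2-fold higher and 0 lower, beside 9.27% and 23.9% of all genes. In the XEN-like culture, 5 of 22 were at least 2-fold higher and 5 lower than in sorted cells, shares close to those of all genes (26.5% and 18%), Lrpap1 being 0.330-fold (0.307 to 0.354).

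Of 12 other cargo receptors tested, 0 were higher in XEN-like than in ectoderm-like cells and 1 was lower, Sort1, which sorts proteins in the Golgi (-2.70 ± 0.71, edgeR adjusted p = 0.0291), with a list median of -0.180; these counts are near the 6.99% and 5.74% of all genes. In the XEN-like culture Folr1, a folate receptor, was 0.0601-fold (17 against 598 UMIs) and Vldlr, a lipoprotein receptor, 23.6-fold (67 against 6 UMIs) its level in sorted cells. Of 24 other secreted carriers and plasma proteins, 9 were tested and 2 were higher and 2 lower in XEN-like than in ectoderm-like cells, beside the same shares. F2, prothrombin, rose by 3.81 ± 0.92 (edgeR adjusted p = 0.0196) and Apoc1, an apolipoprotein, by 2.17 ± 0.48 (adjusted p = 0.0129), while Cp, ceruloplasmin, changed by -7.52 ± 1.20 (adjusted p = 0.00342) and Vtn, vitronectin, by -6.63 ± 1.19 (adjusted p = 0.00584). In the XEN-like culture Clu, clusterin, was 105-fold (88.2 to 125) its sorted level, and Apoc2 had 209 UMIs against 0, at least 147-fold higher against 3 UMIs over the sorted libraries.

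Visceral and parietal endoderm genes were both present. Of 12 tested visceral endoderm genes, 5 were higher and 1 lower in XEN-like than in ectoderm-like cells (median 1.12; 6.99% and 5.74% of all genes), among them Cited1, a transcriptional coactivator (3.07 ± 0.72, edgeR adjusted p = 0.0173), and Habp2, a serine protease (2.88 ± 0.76, adjusted p = 0.032), while Foxa1 was lower (-2.35 ± 0.63, adjusted p = 0.0308). Against mESCs the visceral list was high in both populations, with 8 higher and 2 lower in XEN-like cells (median 5.17; 12.3% and 10.5% of all genes) and 6 higher and 3 lower in ectoderm-like cells (median 4.45; 9.85% and 9.28%). Of 12 tested parietal endoderm genes, 9 were higher and 0 lower (median 3.42), among them Srgn, a proteoglycan core protein (4.54 ± 0.71, edgeR adjusted p = 0.00266), and Pth1r, the receptor of parathyroid hormone related peptide (4.14 ± 0.61, adjusted p = 0.00201). In the XEN-like culture, 7 of 17 visceral endoderm genes were at least 2-fold higher and 3 lower than in sorted XEN-like cells, and 0 of 14 parietal endoderm genes were higher and 6 lower, beside 26.5% and 18% of all genes. Cdh1, which encodes E-cadherin, was 22.6-fold (15.1 to 35.2) and Hnf4a, a transcription factor of visceral endoderm and liver, 6.47-fold (3.68 to 11.9) its sorted level, on 52 against 17 UMIs; Hnf4a was singled out after its values were seen. These lists share genes, Stra6 among them. Of 12 pluripotency genes, 12 were lower in XEN-like cells than in mESCs (median -4.60; 10.5% of all genes) and 11 in ectoderm-like cells (median -6.15; 9.28%); between the sorted populations 5 were higher in XEN-like cells (6.99% of all genes) and Sox2 was lower (-4.37 ± 0.51, edgeR adjusted p = 0.000853).

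Likeness over the 25 bulk libraries was described by the Pearson correlation of log2(CPM + 1) with 8526 genes, in which the points share a time course and the culture libraries weigh heavily. Dab2 was most like Lamb1 (0.957), Rbbp7 and Appbp2, and had 0.933 with Cubn, 0.764 with Lrp2, 0.753 with Rbp4 and 0.751 with Ttr. Cubn was most like Ggta1 (0.951), Klb and Spns2, and Lrp2 most like Cyp26a1 (0.913), Cdc42se2 and Spin2. Among the carriers, Ttr was most like St3gal6 (0.904), Apoa1 most like Tspan8 (0.916), Afp most like Mboat1 (0.891), Rbp4 most like Morc4 (0.829) and Apoe most like Ephx2 (0.900). Lrp2 had 0.730 with Rbp4 and -0.0333 with Afp, and Afp had 0.801 with Apoa1.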

How the data were processed

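The members and gene lists were chosen with earlier results of these data known. For bulk and SCRB-seq libraries, the authors aligned 3′ reads with BWA 0.7.4 to mm10 RefSeq mRNAs and deposited UMI counts per gene. For SMART-seq2 cells the authors deposited RPKM, made with TopHat and Cuffnorm, from which read depth cannot be read. Of 23481 genes, 2 (Gkn2, Rn45s) had damaged values and were left out.

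Bulk counts were scaled to library totals (CPM). The 6 libraries of mESCs and sorted cells were fitted together with edgeR 4.0.16 (R 4.3.3; TMM factors, default low-count filter, quasi-likelihood test, Benjamini-Hochberg adjustment over 8947 genes, threshold 0.05). DESeq2 1.42.0 was an alternative. Elsewhere, ratios of pooled counts with at least 10 UMIs were called at 2-fold, without a test. SCRB-seq cells, wells above 2000 UMIs, were thinned to 2000 at random; doublets were not called. SMART-seq2 values with a decimal comma, all below 1, were read as decimals and 4 genes with repeated names left out. On simulated data with 200 changed genes the edgeR step recovered 83.5% (XEN-like against mESCs, 8510 genes), 81% (XEN-like against ectoderm-like, 8491 genes) and 85% (ectoderm-like against mESCs, 8529 genes), over 4-fold and 8-fold changes together. Listed genes are named where, among those past the threshold between the sorted populations with at least 10 UMIs in both libraries of the higher group, their change is among the 2 largest of a list and direction, or where they have the largest ratio of XEN-like culture to sorted cells of a list with at least 50 UMIs. A further gene that this rule names is not reported here. Calculations used Python 3.11.15.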

Additional observations from a re-analysis of the deposited data

Results flagged for a closer look

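The ratio of Ttr between a culture and the sorted cells of the same label lay on opposite sides of 1 in the 2 lineages. Its level in the XEN-like culture was 14.6 times that of the sorted XEN-like libraries, 27.6 times the first and 7.93 times the second. Its level in the ectoderm-like culture was 0.0200 times that of the sorted ectoderm-like libraries, 0.0507 times the first and 0.0117 times the second. The identity of the XEN-like culture is in doubt, since gut and stomach genes summed to 125291 CPM there and Cd24a was at 421 CPM, and its descent from the sorted cells was not tested. The second sorted ectoderm-like library held XEN markers other than Dab2 at 1537 CPM in sum, against 455 CPM in the first. In the ectoderm-like culture Cd24a was at 18.7 CPM, against 268 and 388 CPM in the sorted ectoderm-like libraries. Each culture is 1 library, so the difference was not tested, and the cultures also differed in time and in growth as floating aggregates or attached cells.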

How the results depend on the processing

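Of 202 alternatives for single members in the 3 edgeR comparisons, 186 kept direction and call, 8 lost and 4 gained a call, and 4 turned direction, all in XEN-like against ectoderm-like cells: Apoe became 0.22 without the second ectoderm-like and 0.47 without the second XEN-like library, and Ttr became 0.68 and Rbp4 2.83 (log2) without the second ectoderm-like library. With single libraries left out, the range was -1.34 to 0.47 for Apoe, -2.14 to 0.68 for Ttr and -1.72 to 2.83 for Rbp4. Counts of called genes moved by over 1.5 times with single libraries left out, from 1267 (without the first XEN-like library) to 1962 for XEN-like cells against mESCs, from 296 to 1371 for XEN-like against ectoderm-like cells, and from 876 to 1750 for ectoderm-like cells against mESCs, and the members called in the last from 3 (without the second ectoderm-like library) to 6. Between the sorted populations 296 and 667 genes were called without the first and second ectoderm-like library, and 478 and 556 without the first and second XEN-like library; against mESCs, 1029 and 876 were called without the first and second ectoderm-like library. DESeq2 called 705 genes between the sorted populations and 1085 in ectoderm-like cells against mESCs. Scaling to library totals in place of TMM moved the median log2 fold change of all genes from -0.0589 to 0.152 for XEN-like cells against mESCs, where 1336 were called higher and 703 lower in place of 1103 and 939, and from 0.0453 to 0.361 for ectoderm-like cells, with 1372 and 587 in place of 881 and 830; between the sorted populations it was 497 and 522 in place of 625 and 514. The member calls were the same under both scalings.

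The sorted libraries share only a replicate number. With the replicate block 2620 genes were called in place of 1139 and Ttr became lower in XEN-like cells (-0.77, edgeR adjusted p = 0.00797); the deviations of replicate 1 from its group mean correlated at 0.4152 over 6025 genes, on 2 pairs.

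Pooled counts were also scaled to Gapdh or TMM factors for 96 h against mESCs, the 72 h gates and the XEN-like culture against sorted cells. Scaling to Actb was run for 96 h against mESCs only. Among these, 1 member call changed, Afp in the 72 h gates (0.516 with TMM). The gates were not scaled to Actb, which was at 4929 CPM in PDGFRA+ cells and at 3353, 3180 and 3349 CPM in the terciles. Of 159 alternatives for the main values and counts of all comparisons, 22 moved.

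Shares at 96 h depend on depth. Not thinned, they were 59.9% for Dab2, 45.3% for Lrp2, 40.1% for Cubn, 9.49% for Rbp4 and 6.57% for Apoe. With wells above 4000 UMIs, Apoe was at 0%, and Rbp4 and Ttr were each at 1.43%. With another seed, Amn was at 0%. Dividing the cells at a higher basement membrane level gave ratios of 2.20 for Dab2, 1.81 for Lrp2, 1.94 for Cubn and 1.04 for Rbp4; the cause was not tested.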
